A study of Mus musculus with 35 samples.

Results

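The genes described here encode the initiation factors (eIF) and elongation factors (eEF) of cytosolic protein synthesis. They were chosen by symbol alone: every gene whose name starts with Eif1 to Eif6, Eef1 or Eef2, without the eIF2 kinases (Eif2ak), the synthetase partner Eef1e1 and entries that end in -ps. This rule found 57 of the 19085 genes in the deposited counts. Of these, 55 were measured, meaning that they reached 5 CPM over all cells and 5 reads in at least 5 cells, as did 8390 genes of the whole table. CPM are reads scaled to a common total of reads on genes. The 2 that did not reach this minimum were Eef1a2 and Eif3j2.

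The cells were 35 C57Bl/6J mouse embryonic fibroblasts (MEFs), a primary culture of connective tissue cells, grown at 3% oxygen. Every cell had received 1 Gy of ionising radiation, was moved to a membrane dish 32 h later and was cut out by laser at 48 h after a DNA stain, so that all comparisons are between irradiated cells. In 21 of them the stain had shown micronuclei, small bodies of chromatin apart from the main nucleus, and in 14 it had not. Polyadenylated RNA of each cell was copied by Smart-seq2, a method that reads whole transcripts and attaches no molecular identifiers. Reads on genes numbered 57514 to 1794113 in a micronucleated cell (median 281800) and 56766 to 2023111 in a cell without (median 736715). At least 3 of 8 fibroblast markers were found in all 35 cells. Macrophage markers were found, 12 of 12, in micronucleated cell 10, and at least 3 of them in no other cell. No culture, embryo or animal is named for any cell, so each group counts as 1 sample and no p-value is given. Intervals are 95% exact intervals (Poisson for summed reads, Clopper-Pearson for shares of cells) and cover counting error only, and spread is the SD over cells.

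Translation starts when eIF2, loaded with GTP and the initiator tRNA, joins the small ribosomal subunit together with eIF1, eIF1A, eIF3 and eIF5. The cap-binding complex eIF4F brings the mRNA to this assembly, eIF5B joins the large subunit at the start codon, and eIF2B reloads eIF2 with GTP for the next round. In elongation eEF1A delivers aminoacyl-tRNA, the eEF1B subunits recharge eEF1A, eEF2 moves the ribosome along by a codon, and eIF5A helps it through stretches that stall. Phosphorylation of eIF2 by stress kinases, binding of eIF4E by the 4E-BP proteins and phosphorylation of eEF2 by its kinase are the classical brakes on this machinery. These brakes act on proteins, which RNA counts do not measure.

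Several factors exist as pairs of closely related genes, and whether a short read can be placed on the right copy decides what the counts of a pair mean. The coding sequences of Eif5a and Eif5a2 were identical at 338 of 462 aligned bases (73.2%), those of Eif4a1 and Eif4a2 at 78.6%, Eef1a1 and Eef1a2 at 80.7%, and Eif1 and Eif1b at 81.3%. Stretches of 60 coding bases from GENCODE annotation of GRCm38 (mm10) are shown for these pairs because they are where the copies are easiest to tell apart: each is the stretch within 1 exon that holds the most differences of its pair. Sequences are in coding orientation, 5′ to 3′, and capitals mark the bases that differ within the pair. There are 22 differences in the Eif5a stretch, 23 in Eif4a1, 22 in Eef1a1 and 16 in Eif1, while an average stretch of 60 coding bases holds 16.1, 12.8, 11.6 and 11.2.
Eif5a, exon 5, chr11:69917613-69917672, minus strand: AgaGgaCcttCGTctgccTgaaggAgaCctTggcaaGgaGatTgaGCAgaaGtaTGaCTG
Eif5a2, exon 4, chr3:28793741-28793800, plus strand: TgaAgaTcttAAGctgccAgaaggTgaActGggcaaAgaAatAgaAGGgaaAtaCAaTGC
Eif4a1, exon 4, chr11:69670144-69670203, minus strand: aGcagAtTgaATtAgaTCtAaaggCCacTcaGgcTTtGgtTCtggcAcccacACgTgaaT
Eif4a2, exon 4, chr16:23109189-23109248, plus strand: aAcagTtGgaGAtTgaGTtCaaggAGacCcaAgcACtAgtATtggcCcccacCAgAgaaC
Eef1a1, exon 5, chr9:78479694-78479753, minus strand: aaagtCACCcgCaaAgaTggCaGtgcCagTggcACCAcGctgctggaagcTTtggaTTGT
Eef1a2, exon 5, chr2:181150989-181151048, minus strand: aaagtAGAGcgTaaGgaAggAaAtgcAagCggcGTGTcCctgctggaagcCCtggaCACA
Eif1, exon 2, chr11:100320689-100320748, plus strand: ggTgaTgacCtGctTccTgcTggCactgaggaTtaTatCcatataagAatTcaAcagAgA
Eif1b, exon 2, chr9:120494130-120494189, plus strand: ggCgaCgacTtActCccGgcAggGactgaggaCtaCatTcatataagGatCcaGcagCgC

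Other members share longer stretches with annotated copies. Of the 50-base stretches of Eif3j2, 91.9% also occur in Eif3j1, whose coding sequence is identical over 786 aligned bases, so the reads of this pair cannot be assigned with certainty. The share of 50-base stretches found in another annotated gene was 44.2% for Eef1g, 39.4% for Eef1a1, 34.6% for Eif2s3x and 28.4% for Eif4a1. Exons that overlap a gene on the opposite strand made up 43.3% of Eif3d, 22.96% of Eef2kmt, 18.99% of Eif3j1, 16.9% of Eif5b and 15.3% of Eif1ad. Whether counting used the strand is not given in the sources used here, so reads of these overlaps are uncertain too.

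Over all 35 cells the members took 362497 reads, 1.60% of all reads on genes. Levels of different genes are compared only per length, as reads per kilobase of the median coding transcript, scaled to a common total. On this scale Eif5a stood highest at 2235 and Eef1a1 next at 1596. With the length of all exons of a gene in its place the values were 2207 and 2101. The order of this pair therefore rests on the length used, and Eif5a was the higher in 25 or 14 of the 35 cells. Shared 50-base stretches also differed, 3.77% for Eif5a and 39.4% for Eef1a1, and their effect on the order was not tested. Eef1b2, the exchange subunit of eEF1B, was at 920 (871 by all exons), and its place after them also rests on the length used, since Eif4ebp1 was at 530.0 (882 by all exons). Of the 56 members with reads, 24 moved by more than 1.5 times between both lengths, and only orders that hold under both are given.

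Within each related pair the order was the same under both lengths. Eif5a exceeded Eif5a2 in all 35 cells, 1291-fold over all cells (697-fold by all exons). Eif4a1, the main helicase of eIF4F, was 2.09 times as high as its relative Eif4a2 (2.08 by all exons) and above it in 32 cells. The start-site factor gene Eif1 exceeded Eif1b 8.63-fold (5.91 by all exons) in 34 cells. The scaffold gene Eif4g1 exceeded Eif4g3 3.5-fold (5.05 by all exons), and Eif4ebp1, which encodes 4E-BP1, exceeded Eif4ebp2 71.3-fold (104-fold by all exons). Eef1a2, the eEF1A copy known from neurons and muscle, had 0 reads in every cell. The exact interval of this count of 0 reaches up to 0.333 CPM in the micronucleated and 0.318 CPM in the other cells.

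**Figure D1:**
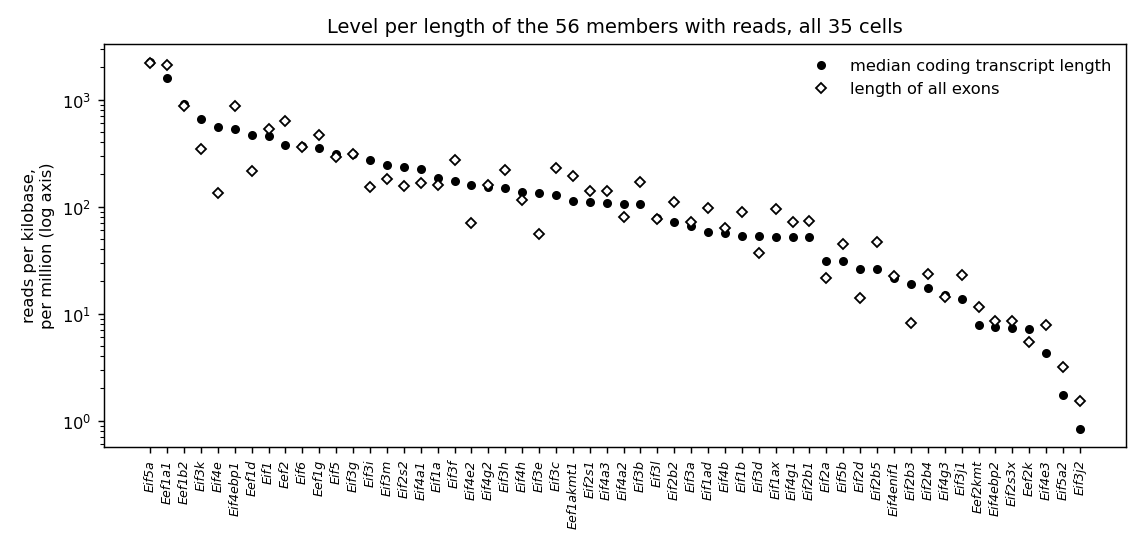
Level of the 56 members with reads over all 35 cells, in reads per kilobase scaled to a common total on a log axis, by median coding transcript length (filled circles) and by the length of all exons (open diamonds). Eif5a and Eef1a1 lead under both lengths, and Eif5a2 and Eif3j2 are lowest under both.

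Single cells kept this core. With at least 5 reads as the minimum, 13 members were found in all 35 cells, 35 in at least 30 cells, and 5 in fewer than 10. Eef1a1 drew the most reads of all members in 21 cells and Eif5a in 12, without regard to length. In cell 7 without micronuclei it was Eif5 and in cell 8 without micronuclei it was Eef2. Eef1a1 varied little: its CV (SD over the mean CPM of the 35 cells) was 31.7%, against 53.2% for Eif5a, 70.9% for Eef2 and 151% for Eif4h. Among genes with at least 300 CPM over all cells the 16 members had a median CV of 50.02%, and all 594 such genes 59.95%.

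**Figure D2:**
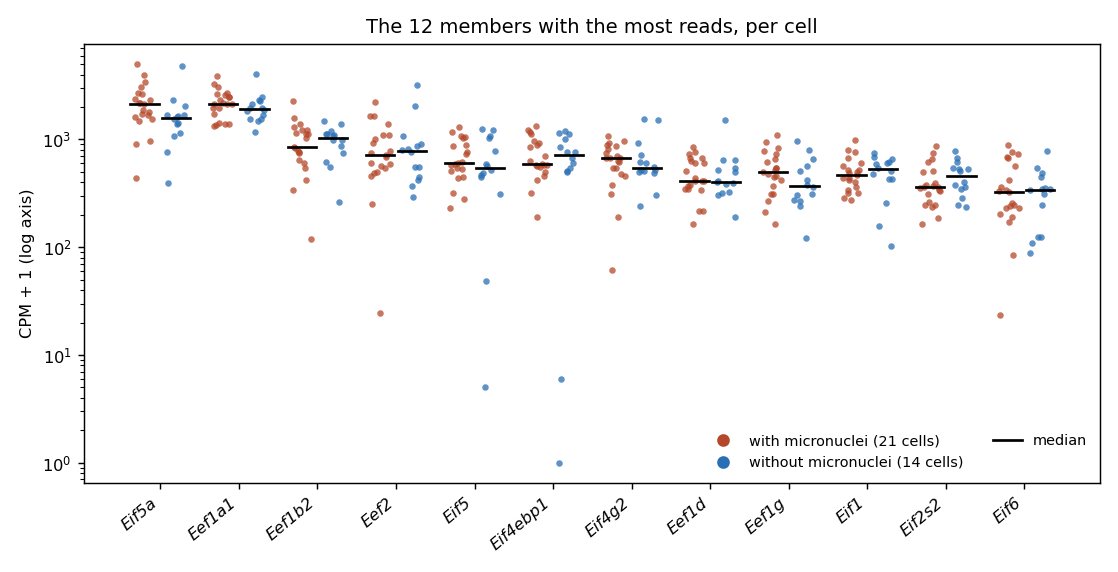
CPM + 1 on a log axis of the 12 members with the most reads, each point 1 cell, micronucleated in red (21) and without micronuclei in blue (14), bars at the medians. All pairs of groups overlap, and single cells lie far below the others for Eef2 (micronucleated cell 11) and for Eif5 and Eif4ebp1 (cells 5 or 1 without micronuclei).

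The members together took 1.16% to 2.23% of the reads of a micronucleated cell (median 1.66%, SD 0.291) and 1.18% to 2.08% of those of a cell without (median 1.51%, SD 0.280). The groups overlapped almost fully. Micronucleated cells 6 and 19 exceeded every other cell and micronucleated cell 3 below the lowest. The medians differed by 0.15 percentage points, less than the SD of either group. Sums of CPM over a role group also depend on transcript lengths and are compared here only between cells. For the eEF1 genes the sum was 4249 CPM as median in micronucleated cells (2679 to 6990, SD 1047) and 3789 CPM in the others (2480 to 6630, SD 1008).

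**Figure D3:**
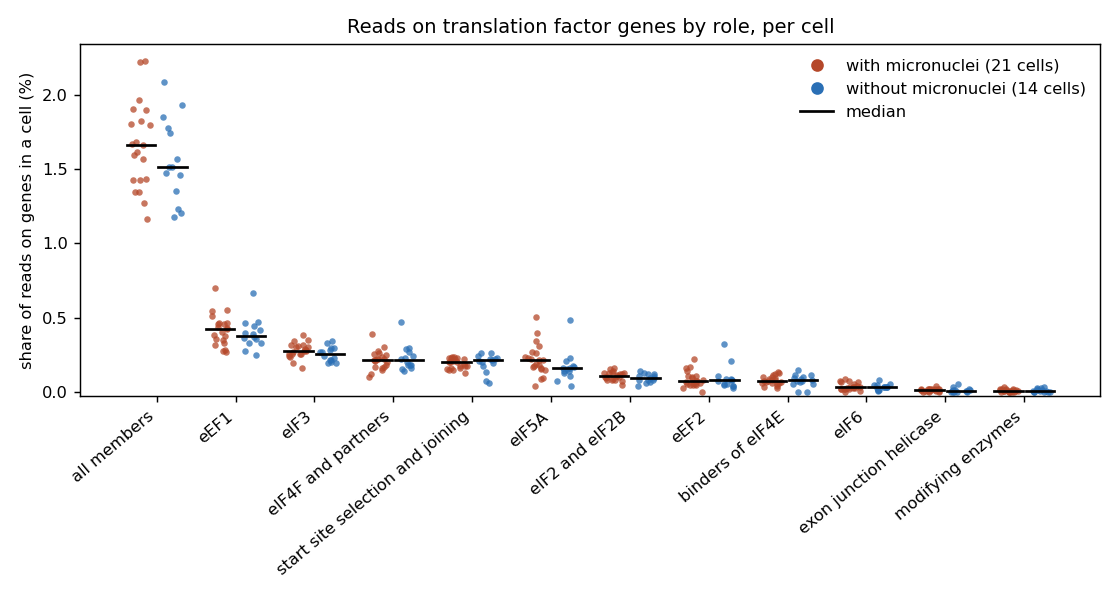
Percent of a cell's reads on genes taken by all 57 members and by each role group, each point 1 cell (21 with micronuclei, red, and 14 without, blue), bars at the medians. The medians over all members are 1.66% and 1.51%, and every role group overlaps between both sets of cells.

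The number of members found in a cell depends on depth, so cells were thinned to 100000 reads, which left out 3 micronucleated cells and 1 other. At this depth 24 to 46 members had at least 5 reads in a micronucleated cell (median 40.5, SD 5.79) and 27 to 43 in a cell without (median 35, SD 5.22). Without thinning the medians were 45 and 41. After thinning, 3 micronucleated cells exceeded the range of the others and 1 fell short of it. The difference of 5.5 members was close to the spread between cells, and without the 6 cells of fewest genes described next it was 3. Measured genes as a whole moved the same way, with medians of 3403 and 3162 after thinning. This was 7.62% more in micronucleated cells, against 15.7% more for the members, and the part of this general difference in the members' was not tested.

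Whether the subunits of 1 complex were found together differed between complexes. All 4 measured eEF1 genes had at least 5 reads in 35 of 35 cells, and after thinning in all 18 and 13 cells that were kept. The eIF4F subunits Eif4e, Eif4a1 and Eif4g1 were all found in 20 of 21 micronucleated cells and 12 of 14 others, and in 14 of 18 and 10 of 13 after thinning. The 5 subunits of eIF2B were found together in 3 of 21 and 0 of 14 cells. After thinning this was so in none, when the medians were 2 and 1 subunits. At 20.8 CPM for Eif2b3 and 23.6 CPM for Eif2b4, thinned cells hold fewer than 5 reads of each on average. The part of these levels and of the minimum in the lack of cells with all 5 was not tested. At equal depth a median of 12 of the 13 measured eIF3 subunits was found in micronucleated cells (5 to 13) and 9 in the others (6 to 13). Measured genes as a whole moved the same way, with medians of 3403 and 3162, and the part of this in the eIF3 counts was not tested. The eIF3 counts were not repeated without the 6 cells of fewest genes.

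Gaps and extremes gathered in cells with few detected genes. Under 4500 genes were detected in micronucleated cells 6 (2391 genes) and 21 (3097) and in cells 1 (3861), 5 (3926), 7 (4156) and 8 (4118) without micronuclei. For the 35 members found in at least 30 cells there were 33 cases of 0 reads, of which these 6 cells held 24. They also held the highest CPM of 25 of the 55 measured members. Neither count was made for all measured genes, so neither can be called particular to the members. Micronucleated cell 6 had 0 reads of 8 widely found members, among them Eif4e, Eif4h and Eif3g, and the highest CPM of 6 others, among them Eif5a and Eif4b. Cell 8 without micronuclei had 0 reads of the widely found Eif2s1, Eif3f and Eif3g and the highest CPM of Eef2, Eef1d, Eif4a1, Eif4a2, Eif4e and Eif1b. Since 4 of the 6 cells are among the 14 without micronuclei and 2 among the 21 with, results are also given without them below.

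**Figure D4:**
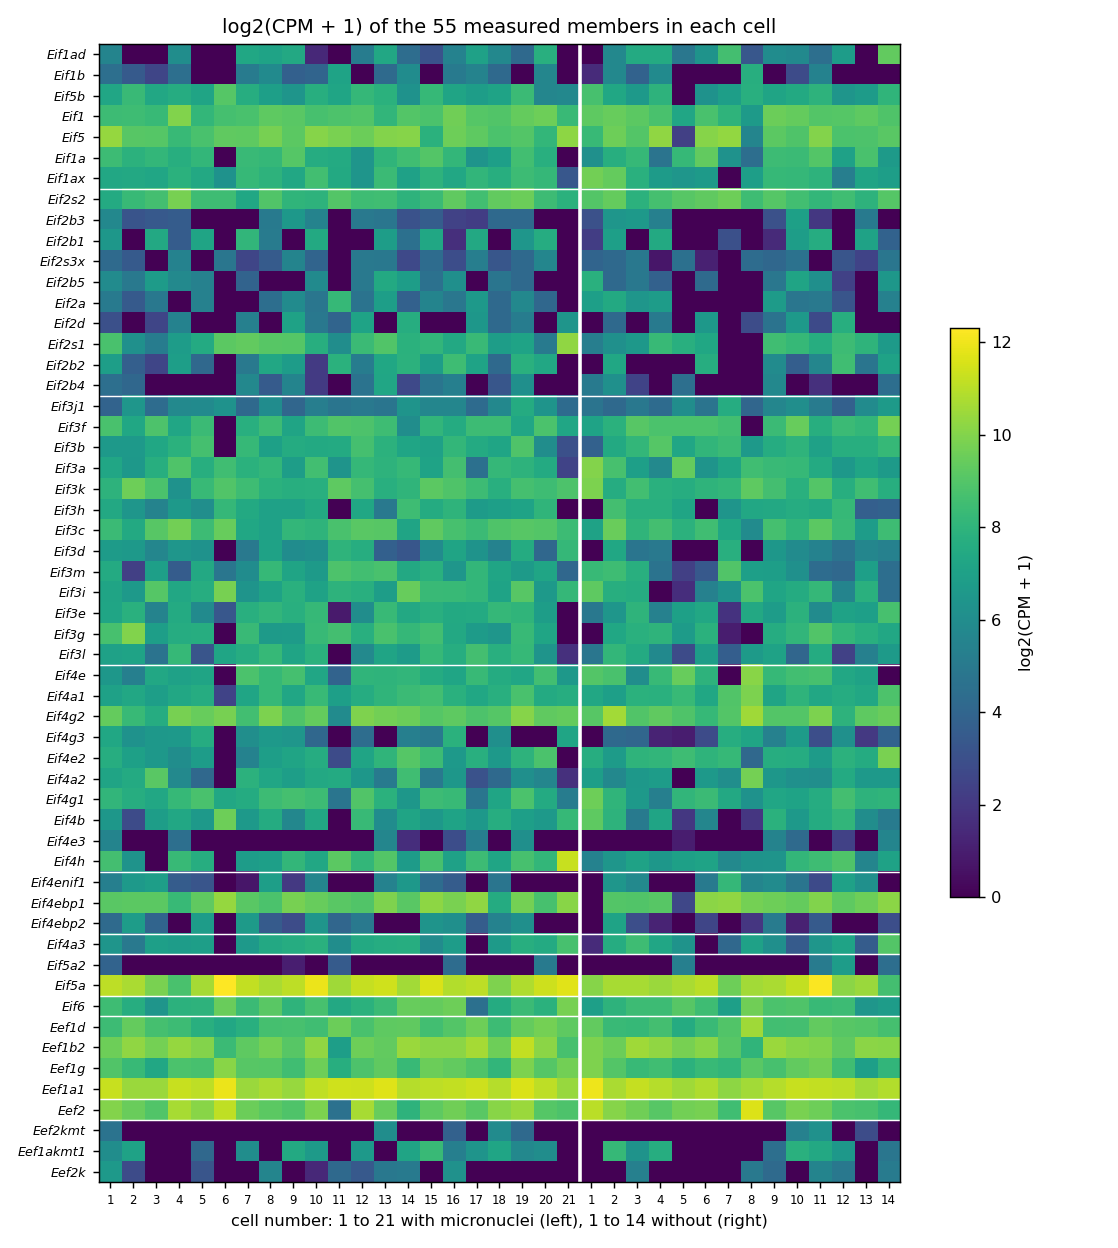
log2(CPM + 1) of the 55 measured members (rows, by role group) in each cell (columns, 21 micronucleated cells left of the white line and 14 cells without micronuclei right of it). Dark squares are values at or near 0, which are most frequent in micronucleated cells 6, 11 and 21 and in cells 1, 5, 7 and 8 without micronuclei.

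Whether translation factor transcripts differ between cells with and without micronuclei was described by the log2 ratio of summed CPM, log2((CPM with micronuclei + 1)/(CPM without + 1)). Values per cell overlapped between the groups for all 55 measured members, a count that was not made for all measured genes. For none of the members did the medians differ by more than the larger SD, which they did for 25 (0.298%) of all measured genes. The log2 ratio was above 0 for 34 of 55 members (61.8%), against 56.0% of all measured genes, and with scran size factors for 28 (50.9%), against 51.4% of all measured genes. The median was 0.15 for the members and 0.15 for all measured genes. Weighting all cells equally gave 0.04 and 0.05, and TMM factors, which move the median of all genes to 0.01, gave 0.01. At least 2-fold higher were 7 members (12.7%, against 22.9% of all measured genes) and at least 2-fold lower were 2 (3.64%, against 14.7%).

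A sign was said to hold when it was the same in summed reads, with equal weight for every cell and whichever of the 35 cells was left out. It held for 21 members that were higher (38.2%, against 33.5% of measured genes) and 11 that were lower (against 20.1%), and depended on a cell or the weighting for 23. At least 2-fold and held were 6 higher (10.9%, against 20.2%) and 1 lower (1.82%, against 10.8%). Of these, Eif2b4, Eif4ebp2 and Eif5a2 each had at least 5 reads in only 3 of the 14 cells without micronuclei. That group alone would not have taken them to the minimum of 5 cells, so a sign that held is no added support for them. The measured members had a median level of 181.7 CPM, against 37.98 CPM for all measured genes, so genes with at least 100 CPM were also taken alone, a choice made after seeing the data. Of the 36 members among them 21 were higher (58.3%, against 48.9%), 2 at least 2-fold higher (5.56%, against 7.81%) and 0 at least 2-fold lower (against 8.08%).

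**Figure D5:**
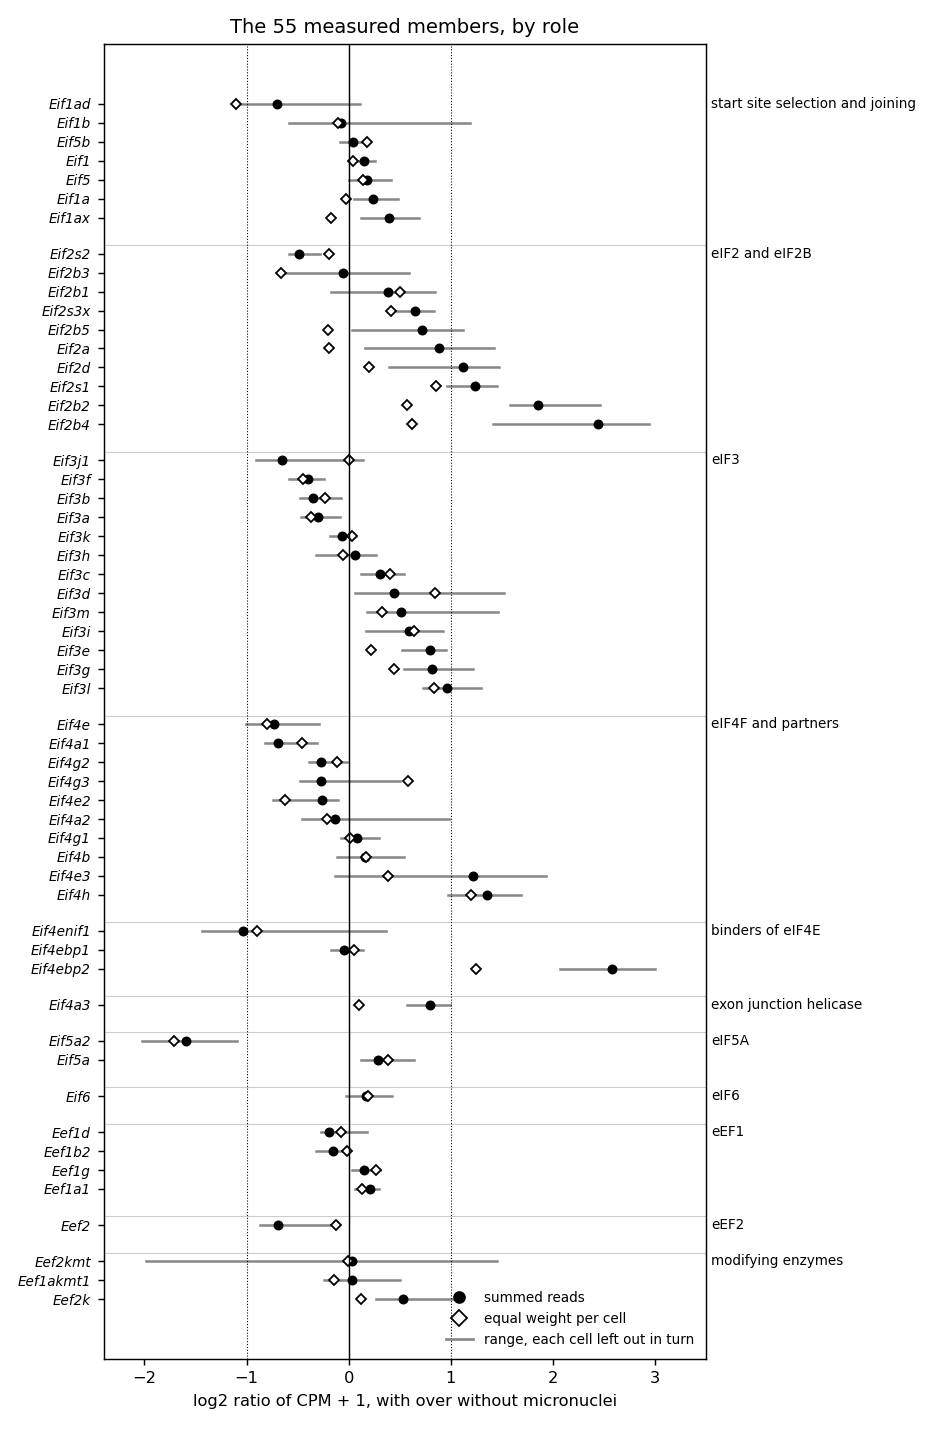
Log2 ratio of CPM + 1, micronucleated over other cells, for the 55 measured members by role group, from summed reads (filled circles) and with equal weight for every cell (open diamonds), with grey bars for the range when each cell is left out in turn and dotted lines at 2-fold. The widest bars belong to members with few reads such as Eef2kmt, while Eif4ebp2 stays right and Eif5a2 left of the 2-fold lines in summed reads.

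Factors of start site selection and subunit joining showed small ratios: 5 of 7 were higher and 2 lower, with a median of 0.15. Of all measured genes 56.0% were higher. With equal weight or scran factors 3 were higher (52.8% and 51.4% of all measured genes), and without the 6 cells of fewest genes 2 (51.6%). Eif1, which keeps the scanning ribosome from starting at the wrong codon, lay between 275 and 987 CPM in micronucleated cells (median 467, SD 184) and between 101 and 743 CPM in the others (median 526, SD 196). The groups overlapped over most of their range. Its summed levels were 451 CPM (439 to 464) and 406 CPM (395 to 418), a log2 ratio of 0.15, which was −0.23 without the 6 cells of fewest genes and −0.14 after thinning. Eif5, which makes eIF2 hydrolyse its GTP at the start codon, had medians of 599 CPM (233 to 1309, SD 305) and 544 CPM (4.04 to 1258, SD 399.5). Only cell 5 without micronuclei, at 4.04 CPM, and cell 8, at 47.9 CPM, were below 200 CPM. The log2 ratio of Eif5 was 0.18, and −0.07 without the 6 cells of fewest genes. The highest of this group was Eif1ax (log2 ratio 0.39, −0.18 with equal weight). The lowest was Eif1ad, a relative of eIF1A, at −0.70. Without cell 7 of the group without micronuclei, which held 33.7% of its reads, Eif1ad was at 0.11, and without micronucleated cell 13 at −1.05.

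The eIF2 and eIF2B genes had the highest median of the larger groups, 0.80 over 10 genes. Of these 8 were higher and 2 lower, while 56.0% of all measured genes were higher. Equal weight brought the median to 0.31, with 6 higher and 4 lower, and the scran factors to 0.34 with the same split. Of all measured genes 52.8% and 51.4% were higher in these settings. Without the 6 cells of fewest genes the median was 0.44, with 7 higher, against 51.6% of all measured genes. The sum over the group had medians of 1091 CPM (SD 284.5) in micronucleated and 952 CPM (SD 292) in other cells, a difference below either SD.

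Within eIF2 the subunits went in different directions. Eif2s1, the alpha subunit that stress kinases phosphorylate, ranged from 32.6 to 1211 CPM with micronuclei (median 233, SD 280.5) and from 0 to 371 CPM without (median 179, SD 128). Cells 7 and 8 without micronuclei had 0 reads of it, while micronucleated cells 1, 6, 7, 8, 9, 13 and 21 exceeded all cells without. The summed levels of Eif2s1 were 382 CPM (370.4 to 393) and 162 CPM (154 to 169). Its log2 ratio was 1.23, 0.86 with equal weight, 0.96 when cell 7 of the other group was dropped and 0.47 without the 6 cells of fewest genes. Eif2s2, the beta subunit, was found in every cell, at 162 to 867 CPM (median 359, SD 186) and 237 to 775 CPM (median 456, SD 163). It was lower in micronucleated cells in summed reads, 334.5 CPM (324 to 346) against 470.5 CPM (458 to 483), a log2 ratio of −0.49 that stayed between −0.58 and −0.28 when single cells were left out. The third subunit, Eif2s3x on the X chromosome, had a median of 14.7 CPM (0 to 48.8) and 15.5 CPM (0 to 29.1), close to each other, and a log2 ratio of 0.65 in summed reads. Its low count is uncertain because of the copies named above, and its Y-linked partner was not analysed here.

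Among the 5 subunits of eIF2B, the factor that reloads eIF2, Eif2b2 and Eif2b4 had the highest ratios in summed reads. Eif2b2, the beta subunit, lay between 0 and 354 CPM with micronuclei (median 114, SD 99.6) and between 0 and 367.5 CPM without (median 19.04, SD 108). Of the others 6 of 14 had no read, of the micronucleated 2 of 21. Summed levels of Eif2b2 were 129 CPM (123 to 136) and 35.1 CPM (31.8 to 38.7), a log2 ratio of 1.85, but 0.57 with equal weight, 0.55 after thinning and 2.46 when cell 6 of the other group was dropped. Eif2b4, the delta subunit, had a median of 8.68 CPM (0 to 153, SD 36.1) against 1.10 CPM (0 to 70.5, SD 22.6). It had 5 reads or more in 9 of 21 and 3 of 14 cells. The cells without micronuclei alone would not have taken Eif2b4 to the minimum for a measured gene. The summed log2 ratio of 2.44 for Eif2b4 rested to a large part on micronucleated cell 13, which held 51.1% of all its reads. Without that cell Eif2b4 was at 1.41, and with equal weight at 0.62. Eif2b1, Eif2b3 and Eif2b5 were under 2-fold (0.39, −0.06 and 0.71), and each changed sign in some setting. Eif2b5 was at −0.20 with equal weight, and Eif2b1 at −0.17 without micronucleated cell 7. Dropping micronucleated cell 13 left Eif2b5 at 0.03, and dropping cell 1 or 10 of the others gave 1.12 or 1.10. Eif2b3 turned above 0 without any of 6 cells, up to 0.59 when cell 10 of that group was dropped.

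The 2 tRNA-binding factors of this group that are no eIF2 subunits gave ratios that moved with single cells. Eif2d had 0 to 203 CPM (median 14.7, SD 57.5) and 0 to 209 CPM (median 6.12, SD 60.1), with 5 reads in fewer of the micronucleated cells, 8 of 21 (38.1%) against 7 of 14 (50.0%). The log2 ratio of Eif2d was 1.12, but 0.40 without micronucleated cell 14, 0.92 when micronucleated cell 9 was dropped, and 0.85 to 1.00 for cells 5, 7, 8 or 11 of the others. Eif2a was at 0.88, at 0.16 without micronucleated cell 11 and at −0.19 with equal weight, and it passed 2-fold without any of 5 other cells, up to 1.42 when cell 4 of the others was dropped.

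Of the 13 measured subunits of eIF3, the scaffold that holds mRNA and initiation factors on the small subunit, 8 were higher and 5 lower. The median was 0.30, 0.22 with equal weight and 0.16 with scran factors, which left 7 higher and 6 lower. Of all measured genes 56.0% were higher, and 51.4% with scran factors. The signs held for 7 higher and 3 lower (33.5% and 20.1% of all measured genes). None reached 2-fold, against 22.9% higher and 14.7% lower of all measured genes. The 3 lower ones were Eif3a, the largest subunit, Eif3b and Eif3f. Eif3a had medians of 230 CPM (4.61 to 477, SD 125) and 165 CPM (53.4 to 1049, SD 277). In summed reads it was lower, at 215 against 266 CPM (log2 ratio −0.31), while its median was higher in micronucleated cells, and without the 6 cells of fewest genes the log2 ratio was 0.49. Cell 1 without micronuclei, at 1049 CPM, had the highest value of Eif3a, and without that cell alone the log2 ratio was −0.08. The highest ratio of the group was that of Eif3l, 144 against 73.5 CPM (0.96, 0.84 with equal weight), which passed 2-fold without any of 8 cells and reached 1.29 when cell 11 of the other group was dropped. The lowest was Eif3j1 (−0.66), which dropping cell 7 of the other group turned to 0.14. The ratios of Eif3d and Eif3m were 0.44 and 0.51 with cell 7 and 1.52 and 1.46 when it was dropped. Eif3g was at 0.82, and dropping cell 11 of that group gave 1.22.

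The cap-binding complex eIF4F and its partners had a median of −0.20, with 4 of 10 genes higher and 6 lower. Equal weight gave 5 and 5, and without the 6 cells of fewest genes 6 were higher and 4 lower, with a median of 0.23. Of all measured genes 56.0% were higher in summed reads, 52.8% with equal weight and 51.6% without these cells. Eif4e, which holds the cap of the mRNA, had a median of 167 CPM with micronuclei (0 to 443, SD 124) and 305 CPM without (0 to 1118, SD 301). The highest value came from cell 8 without micronuclei, and cells 7 and 14 of that group and micronucleated cell 6 had 0 reads. Summed levels of Eif4e were 231 CPM (222 to 239.9) and 385 CPM (373.5 to 396), a log2 ratio of −0.73 and −0.80 with equal weight. Dropping cell 7 of the latter gave −1.01 and dropping cell 8 gave −0.29. It was −0.25 without the 6 cells of fewest genes and −0.10 as a difference of mean log2 CPM. Eif4a1 lay at 193 CPM as median (4.54 to 435, SD 98.2) and 207 CPM (123 to 925, SD 216). Again cell 8 without micronuclei was highest, and it held a large share of the reads. The log2 ratio of Eif4a1 was −0.69, −0.31 without cell 8, and 0.14 without the 6 cells of fewest genes. For Eif4a2 that cell held 32.0% of all reads, and the log2 ratio turned from −0.14 to 0.98 without it, and to 0.07 without micronucleated cell 13.

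The scaffolds of this complex differed little. Eif4g1 had medians of 229 CPM (26.2 to 488, SD 140.5) and 218 CPM (38.2 to 760.0, SD 179), and its log2 ratio of 0.08 changed sign without micronucleated cell 9 or cells 4 or 8 of the other group (lowest −0.08, highest 0.30) and with TMM (−0.06) or scran factors (−0.12). Eif4g2, known as DAP5, which lacks the part that binds eIF4E, was found in all cells at 667 CPM (60.6 to 1078, SD 258) and 538 CPM (242 to 1533, SD 389.7) as medians. Although its median was higher with micronuclei, its summed level was lower, 569 against 688 CPM (log2 ratio −0.27). Dropping cell 8 of the latter group brought this to −0.01.

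The highest ratio of the group with a sign that held was that of Eif4h, which stimulates the helicase eIF4A. It had 0 to 2438 CPM in micronucleated cells (median 277, SD 505) and 42.6 to 472 CPM in the others (median 109, SD 128). Micronucleated cell 21, with 3097 genes, gave the value of 2438 CPM, and micronucleated cells 3 and 6 had 0 reads. The summed levels of Eif4h were 358 CPM (347 to 369.7) and 139 CPM (133 to 146), a log2 ratio of 1.36 and 1.19 with equal weight. It was 0.97 without micronucleated cell 21, 0.57 without the 6 cells of fewest genes and 0.39 as a difference of mean log2 CPM. Eif4e3, a relative of the cap-binding Eif4e, reached 5 reads in 3 micronucleated cells and 3 others. Its log2 ratio of 1.21 became −0.13 when micronucleated cell 13 was dropped, and 0.99 or 1.93 when cell 7 or 9 of the other group was.

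The proteins that bind eIF4E and keep it from eIF4G included a member with few reads whose ratio was at least 2-fold in each setting that measured it. Most settings reuse the same summed reads. The cells without micronuclei alone (4.82 CPM, 3 cells) would not have reached the minimum for a measured gene. Agreement across settings is therefore no added support. Eif4ebp2 (chr10:61428491-61452661, minus strand), which encodes 4E-BP2, had 0 to 109 CPM in micronucleated cells (median 15.6, SD 40.5) and 0 to 141 CPM in the others (median 2.07, SD 37.3). The groups overlapped: cell 2 without micronuclei held the highest value, and 6 of 21 and 5 of 14 cells had none. At least 5 reads were found in 11 of 21 micronucleated cells (52.4%, 29.8 to 74.3) and in 3 of 14 others (21.4%, 4.66 to 50.8), and in 8 of 18 and 1 of 13 after thinning. Summed levels of Eif4ebp2 were 33.8 CPM (30.5 to 37.4) and 4.82 CPM (3.64 to 6.26), a log2 ratio of 2.58. At 18.99 CPM over all cells Eif4ebp2 did not pass the stricter filter, and the other filters leave its value as it is. Over the remaining settings it ranged from 1.17 with scran factors to 2.79 with 0.1 CPM added, and it lay between 2.07 (micronucleated cell 7 dropped) and 3.00 (cell 9 of the others dropped) over the leave-outs. The medians still differed by less than the SD of either group.

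Its relative Eif4ebp1 (chr8:27260329-27276674, plus strand), the far more abundant 4E-BP1, had a ratio near 0. It lay at 191 to 1321 CPM with micronuclei (median 588, SD 309) and 0 to 1207 CPM without (median 717, SD 377). Cell 1 without micronuclei had 0 reads and cell 5 had 5.05 CPM, and all the others of that group lay above 490 CPM. Summed levels were 737 CPM (721 to 753) and 762 CPM (746 to 778), a log2 ratio of −0.05 whose sign changed with the cell left out (−0.18 to 0.14) and with scran factors (0.10). As a difference of mean log2 CPM it was 0.94. Eif4enif1, the transporter that takes eIF4E into the nucleus and to P-bodies, was at −1.04, and cell 7 without micronuclei gave 47.6% of the reads. Dropping it turned the log2 ratio to 0.36. It was also short of 2-fold when micronucleated cell 7 (−0.84), 9 (−0.92), 11 (−0.88), 16 or 21 (−0.98) was dropped. Eif4a3, the helicase of the exon junction complex rather than of initiation, was at 0.80 in summed reads and 0.10 with equal weight.

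Of the eIF5A pair, Eif5a (chr11:69916714-69921958, minus strand) was found in every cell, at 434 to 5020.1 CPM with micronuclei (median 2148, SD 1051) and 389.9 to 4799 CPM without (median 1585, SD 1024). Micronucleated cell 6 and cell 11 without micronuclei were the highest of their groups. Summed levels were 2240 CPM (2212 to 2268) and 1835 CPM (1810 to 1859), a log2 ratio of 0.29 that stayed above 0 whichever cell was left out (0.12 to 0.64), but was −0.11 without the 6 cells of fewest genes. Eif5a2 (chr3:28781276-28798846, plus strand) went the other way at a level near the detection limit. It had 28 reads in all micronucleated cells and 112 in all others, 0 reads in 16 of 21 and 10 of 14 cells, and at least 5 reads in 2 and 3 cells. The highest values were 32.6 and 109 CPM, the latter in cell 12 without micronuclei, and both medians were 0. Its summed levels were 2.53 CPM (1.68 to 3.65) and 9.64 CPM (7.94 to 11.6), a log2 ratio of −1.59. This stayed between −2.03 and −1.10 when single cells were left out and was −0.69 as a difference of mean log2 CPM. Eif5a2 met the minimum with exactly 5 cells, and neither group alone would have reached it. Without micronucleated cell 11 (−2.03) or cell 11 of the others (−1.10) it was no longer a measured gene, so this range is no added support.

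Eif6, which keeps free large ribosomal subunits from joining small ones, had 22.4 to 888 CPM with micronuclei (median 328, SD 244) and 88.0 to 781 CPM without (median 341, SD 194). The groups overlapped almost fully. Its log2 ratio was 0.16, and just below 0 without micronucleated cell 14 or cell 7 of the other group (lowest −0.02).

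The eEF1 genes, which deliver aminoacyl-tRNA, split evenly, with 2 higher and 2 lower (56.0% of all measured genes were higher). Eef1a1 (chr9:78478449-78489151, minus strand) had 1326 to 3872 CPM in micronucleated cells (median 2155, SD 682) and 1161 to 4035 CPM in the others (median 1920, SD 681). Nearly the whole range was shared. Its summed levels were 2181 CPM (2153 to 2208) and 1884 CPM (1859 to 1909), a log2 ratio of 0.21 (0.06 to 0.29 when single cells were left out). Of the eEF1B subunits that recharge eEF1A, Eef1b2 was at −0.15, Eef1g at 0.15 and Eef1d at −0.19. Eef1b2 had medians of 846 CPM (118 to 2278, SD 479) and 1037 CPM (264 to 1492, SD 333), with micronucleated cell 11 the lowest. Eef1d had the highest value, 1511 CPM, in cell 8 without micronuclei, and without that cell its log2 ratio was 0.18.

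Eef2 (chr10:81176631-81182498, plus strand), which moves the ribosome along the mRNA, had 23.4 to 2233 CPM with micronuclei (median 716, SD 522) and 294 to 3193 CPM without (median 780.2, SD 783). Micronucleated cell 11 alone lay below 240 CPM, and cell 8 without micronuclei alone lay above the highest micronucleated cell. That cell held 24.4% of all Eef2 reads. Summed levels were 623 CPM (609 to 638) and 1007 CPM (988 to 1025), a log2 ratio of −0.69, which was −0.17 without cell 8 and −0.13 with equal weight. Its kinase gene Eef2k reached 5 reads in 6 micronucleated cells and 6 others. Its log2 ratio of 0.53 was 1.11 when cell 11 of the other group was dropped, 0.12 with equal weight, −0.02 with scran factors and −0.09 as a difference of mean log2 CPM. The lysine methyltransferase gene Eef2kmt, whose reads are uncertain because of the overlap named above, moved from 0.03 to −1.98 or 1.46 when micronucleated cell 13 or cell 11 of the others was dropped, and Eef1akmt1, at 0.03, changed sign with several of the cells left out.

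A list of 45 further translation genes covered release factors, eIF2 kinases, mTOR and eIF4E kinases, poly(A) partners and the enzymes that modify eIF5A and eEF2. Of these 41 were measured, 21 higher and 20 lower, while 56.0% of all measured genes were higher. At least 2-fold were 7 in each direction (against 22.9% higher and 14.7% lower of all measured genes), and the median was 0.03. Ranked by the smallest ratio of 1 sign over summed reads, equal weight and all leave-outs, the first 4 were Mknk1, Eif2ak2, Dph6 and Ppp1r15a. Mknk1, a kinase of eIF4E, was at 32.7 CPM against 3.79 CPM (log2 ratio 2.82), with at least 5 reads in 7 and 2 cells, and 58.7% of its reads were in micronucleated cell 13. Dropping that cell gave 1.58, and dropping cell 4 of the others 3.76. The cells without micronuclei alone (3.79 CPM, 2 cells) would not have taken Mknk1 to the minimum for a measured gene. Its first place is therefore no added support. Eif2ak2, the kinase of eIF2 that double-stranded RNA activates, was lower in summed reads, at 36.7 CPM against 144 CPM (log2 ratio −1.95). Its median went the other way, 9.44 CPM with micronuclei (SD 40.2) and 0 CPM without (SD 144). Cell 4 without micronuclei held 27.7% of its reads, and dropping that cell gave −1.54. Dropping micronucleated cell 13 gave −2.63. It was found in 8 of 21 and 5 of 14 cells. Ppp1r15a, which directs a phosphatase to eIF2, stood at 120 CPM against 36.9 CPM (log2 ratio 1.67). Dropping micronucleated cell 13 gave 0.96. Dph6, an enzyme of the diphthamide on eEF2, had a log2 ratio of 1.497, and of 0.98 when micronucleated cell 7 was dropped.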

How the data were processed

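Single MEFs were captured by laser and their RNA was sequenced by Smart-seq2. The deposited values are raw read counts per gene and cell, which the authors obtained with STAR on GRCm38.p5 and Rsubread, and cells were filtered with scater, per the submitters' processing notes. The strand setting is not given in the sources used here.

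Spike-ins were left out, reads were scaled to CPM per cell or summed per group, and 1 CPM was added before log2 ratios. Measured genes had at least 5 CPM over all cells and 5 reads in 5 cells. With 1 sample per group no test was made, and intervals are 95% exact. Lengths, positions and sequences came from GENCODE annotation of GRCm38. Members named were the 12 with most reads, those at least 2-fold with a sign that held, a fixed list of core factors, and the highest and lowest of each role group. The members and lists were chosen with earlier results of these data known. Others named because a single cell decides their value were chosen after their values were seen. Alternatives were weighting, normalization, added CPM, filters, thinning, and leaving out cells; genes of at least 100 CPM, cells of under 4500 genes and the all-exon length were added after seeing the data. Cell numbers only name cells. Python 3.11.15, pandas 2.3.3, scipy 1.17.1, R 4.3.3, edgeR 4.0.16 (TMM only) and scran 1.30.0 were used, and the scripts were tested on simulated data.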

Additional observations from a re-analysis of the deposited data

How the results depend on the processing

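The median log2 ratio of the members was 0.0398 with equal weight for every cell and 0.0102 with TMM factors, and 0.0800 to 0.282 when single cells were left out. The number at least 2-fold higher was 2 with equal weight (15.7% of all measured genes), 2 with scran factors (16%), 3 after thinning (13.9%), 2 among genes of at least 100 CPM (7.81%), and 6 to 10 when single cells were left out. The number at least 2-fold lower was 0 with 5 CPM added (12.1% of all measured genes), 1 with the stricter filter (13.2%), 1 without cells of under 4000 genes or over 9% mitochondrial reads (14.3%), 0 among genes of at least 100 CPM (8.08%), 0 without cells of under 4500 genes (13.5%), and 0 (without micronucleated cell 11 or 16) to 4 (without micronucleated cell 13) when single cells were left out. The number higher was 21 among the 36 members of at least 100 CPM (48.9% of all such genes) and 31 to 36 when single cells were left out. The difference in summed CPM stayed between 1275 and 1538 and that in members found between 5 and 6 when single cells were left out. Outside the leave-outs, 58 of these summary values moved little and 12 moved more, and the cause was not tested. For single members 196 values moved little, which here meant within the counting error of their reads, and 142 more. No paired analysis was possible because cell numbers follow the order of deposit and name no shared culture. Depth limits members with few reads, such as Eif5a2, Eif2b4 and Eif4ebp2.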

Other observations

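Pearson correlations of log2(CPM + 1) over the 35 cells, which differ in depth, were taken for the 35 members found in at least 30 cells. Their median was 0.09 over 595 pairs, from −0.53 to 0.76 for Eif1a and Eif3g. Both of these genes had 0 reads in micronucleated cells 6 and 21, which are among the cells of fewest genes. The effect of such cells on the correlation was not tested. Entries left out as pseudogenes had few reads, 60 for Eif4a-ps4 and 23 for Eif5al3-ps.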
